A study of Mus musculus with 12 samples.

Results

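Transcripts of 9 podocyte foot process and cell surface genes were followed in RNA sequencing libraries of podocytes from Nsd2 knockout and control mice. The genes were taken by their symbols, and all 9 were listed at both ages, among 22290 genes listed at both. They were Synpo, Actn4, Inf2 and Nes, whose products act in the cytoskeleton, Ezr and Clic5, whose products join the apical membrane to actin, and Podxl, Pdpn and Thsd7a, whose products sit in the membrane. All 9 passed the filter on low counts at both ages.

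Podocytes cover the glomerular capillaries with interdigitating foot processes. Each process holds contractile actin bundles, and its apical surface carries a negatively charged coat of sialylated glycoproteins that is tied to actin through adaptor proteins. In proteinuric disease the processes flatten and broaden, and inherited variants in several of these genes cause podocyte disease.

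Every library came from primary podocytes of mice with diabetes induced by a high-fat diet and streptozotocin (HFD/STZ), so no group was free of diabetes. Control mice carried floxed Nsd2 alleles without Cre (Cre-/Nsd2fl/fl), and knockout mice carried the same floxed alleles with a podocyte-specific Cre (Cre+/Nsd2fl/fl). The labels do not name the promoter that drives Cre. Each genotype was sampled at 20 and at 28 weeks of age, with 3 libraries in each of the 4 groups. Whether the 3 libraries within a group represent different mice is not stated, so each p-value refers to library-to-library spread, part or all of which may be technical.

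Total counts were between 31405349 and 38989180 per library. Nsd2, which encodes a histone methyltransferase, was at 66.6 to 94.2 counts-per-million (CPM, with scaled library sizes) in the 20-week controls and at 34.1 to 51.7 CPM in the knockouts of that age. At 28 weeks it was at 77.6 to 87.2 CPM in controls and at 35.2 to 42.9 CPM in knockouts, so every knockout library was below every control library at both ages. Nsd2 transcript in the knockouts was thus reduced and not absent, at 0.545 of the control level at 20 weeks and 0.463 at 28 weeks. At 28 weeks, control libraries 2 and 3 were closer to each other than any other pair within a group. Their mean chi-square per gene was 4.57, against 74.4 to 218 in the other pairs, which is still above sampling noise, and they were kept as separate libraries. The podocyte markers listed for this check had reads in every library. Nphs1, for nephrin, was between 0.914 and 15.2 CPM over all 12 libraries. Reads alone do not give the share of podocytes. In 20-week controls the podocyte markers Nphs1 and Col4a3 had means of 4.60 and 460 CPM. The smooth muscle markers Tagln and Acta2 had means of 2409 and 1750 CPM there, and the parietal cell marker Krt8 had 936 CPM. What share of the RNA came from podocytes was not tested.

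On GRCm38 (GENCODE mouse release 21), Pdpn lies at chr4:143267431-143299564 and Podxl at chr6:31519488-31563981, both on the minus strand, as do Thsd7a at chr6:12311610-12749410, Actn4 at chr7:28893248-28962340 and Ezr at chr17:6738041-6782784. Nes at chr3:87971078-87980451, Inf2 at chr12:112588784-112615557 and Clic5 at chr17:44188584-44280172 are on the plus strand. The 5′ flanks of the genes with the clearest differences, and of Inf2, are shown because their base composition and short motifs differ widely. The windows are the 250 bases before a RefSeq start on GRCm38.p6, on the strand of the gene, and 7 of the 9 genes had one (not Synpo or Podxl). Capitals mark matches, on either strand, to 3 motifs. These are the core recognised by TEAD factors, the partners of the Hippo effector YAP (GGAATG or CATTCC), the palindromic E-box CACGTG, and the GC box (GGGCGG or CCGCCC). The Pdpn window is chr4:143299565-143299814 (minus strand), the Ezr window chr17:6782781-6783030 (minus strand), the Clic5 window chr17:44188322-44188571 (plus strand), and the Inf2 window chr12:112588534-112588783 (plus strand).
Pdpn: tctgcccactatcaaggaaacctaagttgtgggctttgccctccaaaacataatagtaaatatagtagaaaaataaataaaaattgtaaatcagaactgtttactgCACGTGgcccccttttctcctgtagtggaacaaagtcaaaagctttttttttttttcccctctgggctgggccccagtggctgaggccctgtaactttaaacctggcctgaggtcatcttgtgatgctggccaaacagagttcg
Ezr: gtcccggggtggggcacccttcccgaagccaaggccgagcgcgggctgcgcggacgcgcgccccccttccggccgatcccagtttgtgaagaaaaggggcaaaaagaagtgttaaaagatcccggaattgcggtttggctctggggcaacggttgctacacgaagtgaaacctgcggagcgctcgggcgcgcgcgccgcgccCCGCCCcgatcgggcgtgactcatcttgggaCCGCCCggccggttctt
Clic5: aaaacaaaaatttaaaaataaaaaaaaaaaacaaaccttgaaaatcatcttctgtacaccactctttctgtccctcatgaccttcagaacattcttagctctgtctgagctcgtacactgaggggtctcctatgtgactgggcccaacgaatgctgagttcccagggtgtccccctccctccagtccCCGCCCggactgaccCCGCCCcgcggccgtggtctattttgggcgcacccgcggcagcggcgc
Inf2: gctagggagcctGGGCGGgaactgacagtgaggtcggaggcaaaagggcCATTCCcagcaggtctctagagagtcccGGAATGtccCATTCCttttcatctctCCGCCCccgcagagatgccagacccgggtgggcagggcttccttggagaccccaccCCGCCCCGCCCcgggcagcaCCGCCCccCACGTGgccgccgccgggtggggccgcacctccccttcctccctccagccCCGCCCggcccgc
The Pdpn window held 43.2% G and C with 2 CpG dinucleotides, below the median window of 52.4% and 6 CpG. Its single match was the E-box, which 6.04% of all 32536 windows of this length held. The Ezr window was the opposite kind, with 67.2% G and C and 32 CpG, and held 2 GC boxes, a motif found in 33.0% of windows. The Clic5 window was near the median at 52.8% G and C, with 13 CpG and 2 GC boxes. Inf2 has 2 RefSeq starts in the table, and the window printed is that of the start matching its GENCODE start. It had 71.6% G and C, against 68.4% in the other, and both held 3 matches to the TEAD core, which 12.6% of windows held at least once, and Actn4 held 1. The windows of Nes, Ezr, Clic5, Pdpn and Thsd7a held none of these TEAD letters. These matches describe letters in a window and not binding.

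Levels were first compared between genes per length, in the deposited FPKM values, which divide by gene length and library total. In 20-week controls Actn4 stood highest, at a mean of 186 FPKM ± 31.4 (SD, n = 3), and its 3 libraries lay above those of every other gene of the set. Nes at 97.8 FPKM, Ezr at 96.6 FPKM and Pdpn at 85.4 FPKM followed, and neighbours in this order overlapped. Podxl was at 48.9 FPKM, apart from both neighbours. Clic5 at 15.8 FPKM, Synpo at 15.7 FPKM and Inf2 at 12.7 FPKM also overlapped as neighbours. Thsd7a was lowest at 1.70 FPKM, below every library of the other genes.

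The order of the means differed between the groups. In 20-week knockouts Actn4 remained first at 286 FPKM ± 34.8, followed without overlap by Pdpn at 164 FPKM ± 19.9 and Nes at 136 FPKM ± 2.17. Ezr was below Podxl at 67.8 FPKM ± 8.15, overlapping Clic5 at 80.2 FPKM ± 22.3. In 28-week controls Ezr was second at 121 FPKM ± 5.82 and Pdpn was at 69.1 FPKM ± 4.49. In 28-week knockouts Pdpn at 181 FPKM ± 9.59 and Actn4 at 180 FPKM ± 48.2 overlapped at the top, and Ezr was at 46.2 FPKM ± 9.66.

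At 20 weeks most of the set was higher in the knockouts. By edgeR's quasi-likelihood test, 6 of the 9 genes rose and 3 did not pass, whereas 9.92% of all 14853 genes tested were called, 4.79% of them higher and 5.13% lower. The fold change was above 1 for 8 of the 9, against 51.1% of all genes, and the median log2 fold change was 0.72, against 0.01 over all genes tested. In 7 of the 9 every knockout library was above every control library, which held for 15.5% of all genes. In bulk libraries a change in the share of cells that express a gene cannot be told apart from a change in RNA per cell.

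**Figure D1:**
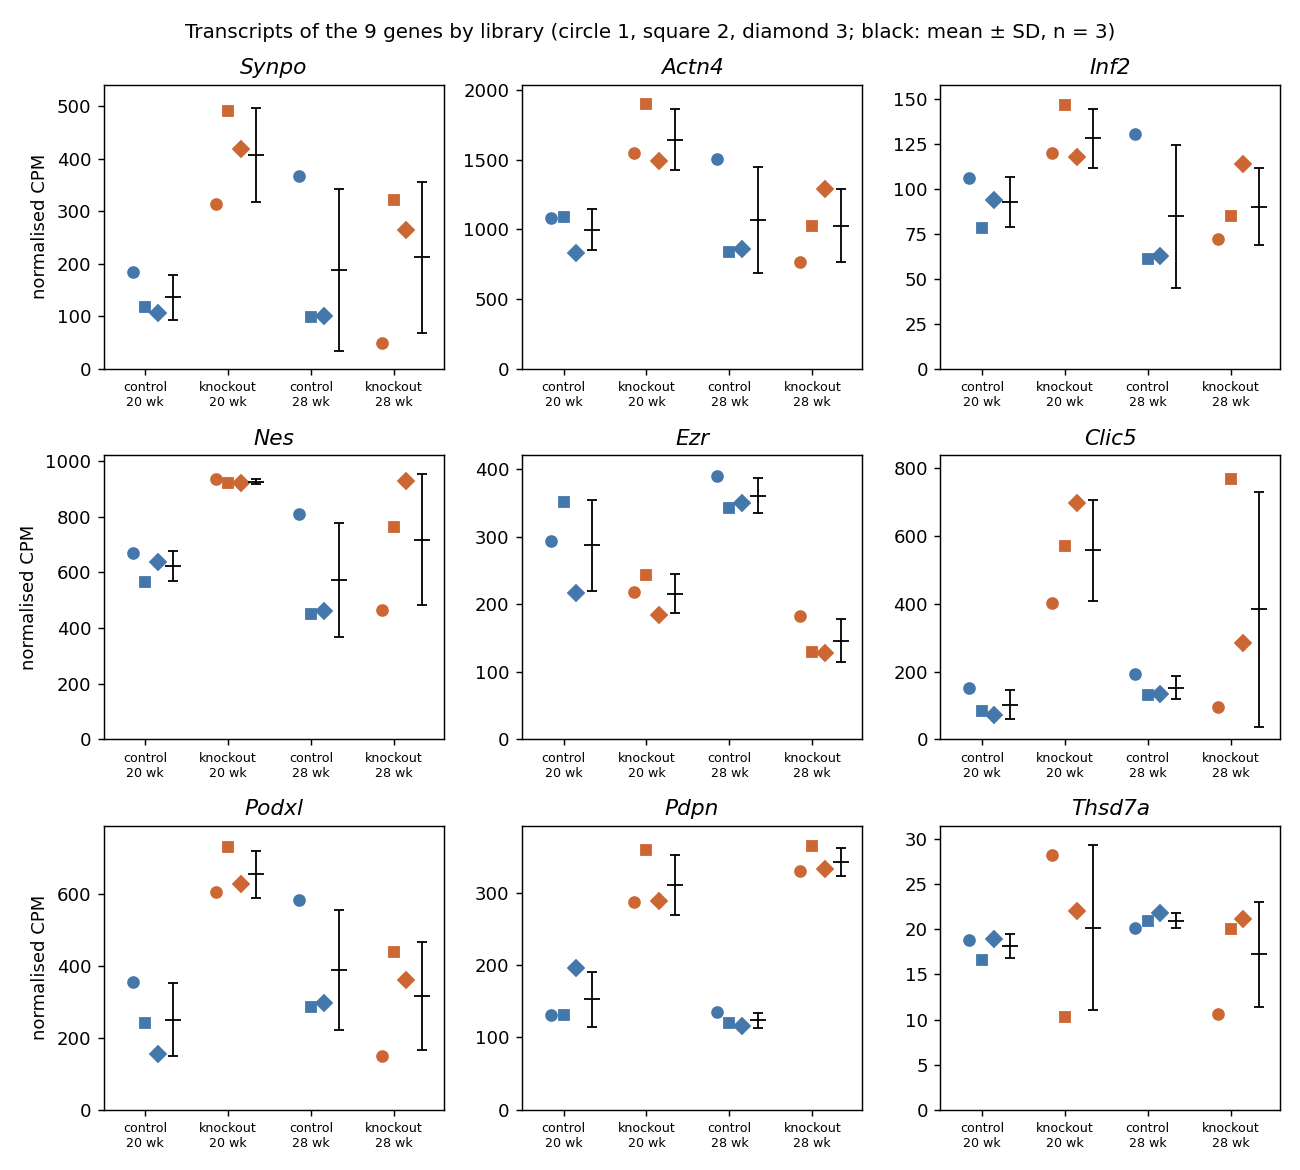
Level of each of the 9 genes in every library, in CPM on a linear axis from 0, by age and genotype; points are libraries (n = 3 per group) and black bars are group means ± SD. Pdpn separates the genotypes at both ages, Clic5, Synpo, Podxl, Actn4, Nes and Inf2 separate them at 20 weeks, and Ezr separates them at 28 weeks.

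Among the cytoskeletal genes, Synpo encodes synaptopodin, an actin-associated protein of foot processes. At 20 weeks its control libraries 1 to 3 were at 185, 118 and 106 CPM and its knockout libraries at 313, 491 and 418 CPM. The lowest knockout was thus well above the highest control. The log2 fold change was 1.58 ± 0.26 (SE), with an adjusted p of 0.0109.

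Actn4 encodes alpha-actinin-4, which crosslinks actin filaments and is mutated in a dominant form of focal segmental glomerulosclerosis. Its control libraries were at 1078, 1089 and 828 CPM and its knockout libraries at 1543, 1896 and 1489 CPM. The groups did not overlap, and Actn4 rose by a log2 fold change of 0.72 ± 0.18 (adjusted p = 0.0444). Its exons share 316 bases with Capn12 on the other strand, and no source used here states whether the counting used strand. Nes encodes nestin, an intermediate filament protein of podocytes. Nes was at 670, 564 and 639 CPM in controls and at 936, 922 and 922 CPM in knockouts. The knockout libraries were almost level with each other, and the log2 fold change was 0.57 ± 0.15 (adjusted p = 0.0472).

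Inf2 encodes an inverted formin that polymerises and severs actin and that is also mutated in dominant focal segmental glomerulosclerosis. Its control libraries were at 106, 78.2 and 93.9 CPM and its knockout libraries at 120, 147 and 118 CPM. Every knockout was above every control, but the difference of 0.47 ± 0.18 did not pass (adjusted p = 0.153).

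Of the linkers between membrane and actin, Clic5 passed the test at 20 weeks and Ezr did not. Clic5 encodes a chloride intracellular channel family protein that associates with ezrin and podocalyxin at the apical membrane. Its control libraries were at 151, 83.5 and 71.9 CPM and its knockout libraries at 403, 571 and 699 CPM. Clic5 had the largest fold change of the set at 20 weeks, 2.45 ± 0.33 on the log2 scale (adjusted p = 0.00574), which is 5.45-fold. Ezr encodes ezrin, the protein that ties podocalyxin to actin through NHERF adaptors. Ezr was at 293, 352 and 216 CPM in controls and at 219, 243 and 185 CPM in knockouts. These groups overlapped, and the difference of -0.41 ± 0.21 did not pass (adjusted p = 0.279).

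Of the membrane proteins, Podxl encodes podocalyxin, the main sialoglycoprotein of the apical coat. Podxl was at 354, 242 and 154 CPM in 20-week controls and at 605, 729 and 627 CPM in knockouts, with no overlap. It rose by 1.39 ± 0.29 on the log2 scale (adjusted p = 0.0235). Pdpn encodes podoplanin, a mucin-like membrane protein that also binds ezrin. Pdpn was at 131, 130 and 196 CPM in controls and at 287, 359 and 288 CPM in knockouts. The groups were again apart, and Pdpn rose by 1.03 ± 0.21 (adjusted p = 0.0226). Thsd7a encodes a thrombospondin-repeat protein at the base of foot processes that is an autoantigen in membranous nephropathy. Thsd7a was at 18.8, 16.6 and 18.9 CPM in controls and at 28.2, 10.2 and 22.0 CPM in knockouts. Its knockout libraries lay on both sides of the controls, with a difference of 0.15 ± 0.34 (adjusted p = 0.837).

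These 20-week calls differed in whether they held when 1 library was left out. Clic5 was called with any 1 of the 6 libraries left out, with a highest adjusted p of 0.0313. Synpo lost its call without control 2 (adjusted p = 0.0508), and Podxl without control 2, knockout 2 or knockout 3 (adjusted p between 0.0744 and 0.0871). Pdpn lost its call without control 1, control 2, knockout 2 or knockout 3 (adjusted p between 0.0593 and 0.0871). Actn4 and Nes lost theirs whichever library was left out, although their log2 fold changes stayed at 0.60 to 0.81 and at 0.52 to 0.60. The number of the 9 genes called was 3 without control 1, 1 without control 2, 2 without knockout 2 and 2 without knockout 3. Calls over all genes also fell in these runs, from 1473 to 517, 602, 663 and 553 in the same order. Without control 3 and without knockout 1, 4 of the 9 were called, beside 1061 and 2023 calls over all genes. In the model of all 12 libraries only Clic5 and Pdpn were called at 20 weeks. Actn4 and Nes also lost their calls with upper quartile scaling and with total counts alone, which left 4 of the 9 called.

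Genes that mark podocytes or other cells of the kidney moved between the same groups at 20 weeks, and their part in these differences was not tested. Over all genes 4.79% rose and 5.13% fell at this age. Of 18 podocyte markers that are not in the set, 8 rose and 1 fell, and their summed level was 1204 to 1969 CPM in controls and 2587 to 3660 CPM in knockouts. The marker that fell was Cdkn1c, a cell cycle inhibitor of mature podocytes, which fell by 2.03 on the log2 scale (adjusted p = 0.0162). Of 7 smooth muscle markers 6 rose, with sums of 4549 to 4870 CPM in controls and 9652 to 13806 CPM in knockouts. These sums were mostly Acta2 and Tagln. Of 11 tested mesangial, pericyte and fibroblast markers 7 rose and 1 fell, with sums over 12 genes of 546 to 1603 CPM against 3111 to 4084 CPM. These sums were mostly Col1a1 and Col1a2.

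Some markers of other epithelial cells fell at 20 weeks, when 5.13% of all genes fell and 4.79% rose. Of 8 markers of parietal cells, which line Bowman's capsule, 5 fell, with sums of 2724 to 5907 CPM in controls and 600.0 to 1909 CPM in knockouts. Of 8 tested tubule markers 2 fell, with sums over 12 genes of 1071 to 1178 CPM against 64.1 to 633 CPM. Umod and Slc12a3 had no reads in knockouts 2 and 3. In controls they were at only 0.0259 to 0.58 CPM and 0.0259 to 0.0276 CPM. In knockout 1 they were higher, at 0.968 and 0.415 CPM. All 3 tested mesothelial markers fell, with sums over 5 genes of 231 to 623 CPM against 34.9 to 96.7 CPM. These sums were mostly Krt19, at 162 to 523 CPM in controls and 32.8 to 90.8 CPM in knockouts. Lrrn4 had no reads in any knockout, but its 0.0259 to 0.0527 CPM in controls was also below the 0.0769 CPM that 0 counts allow. Of 10 endothelial markers 1 rose, with sums of 93.1 to 126 CPM in controls and 126 to 169 CPM in knockouts. Leukocyte sums over 10 genes overlapped, at 20.5 to 178 CPM and 25.2 to 71.9 CPM. Cd3e had 0 reads in all knockouts and only 0 to 0.0276 CPM in controls.

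At 28 weeks 2 of the 9 genes passed the test. Pdpn rose, Ezr fell and 7 genes did not pass, against 21.2% of all 15011 genes called at this age, 9.33% of them higher and 11.9% lower. The groups did not overlap in those genes alone, whereas 19.3% of all genes were higher and 22.8% lower in every knockout. The fold change was above 1 for 5 of the 9, against 55% of all genes, and the median log2 fold change was 0.09, against 0.07 over all genes tested.

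Pdpn was at 135, 120 and 115 CPM in 28-week controls and at 330.0, 365 and 333 CPM in knockouts. The lowest knockout was above the highest control, and the spread within each group was small, at 10.3 and 19.3 CPM (SD, n = 3). The log2 fold change was 1.47 ± 0.12 (adjusted p = 0.00239), which placed Pdpn at rank 56 by p among all genes tested. Pdpn was thus higher in all 3 knockouts at both ages, a pattern of calls shared by 2.16% of the 14567 genes tested at both. A call as lower at both ages, found for 2.62% of those genes, occurred in 0 of the 9.

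Ezr was at 390.0, 342 and 349 CPM in 28-week controls and at 183, 129 and 127 CPM in knockouts. All knockouts were below all controls, and Ezr fell by 1.30 ± 0.18 on the log2 scale (adjusted p = 0.00627), to 0.406 of the control level. The calls of Pdpn and Ezr at 28 weeks held with any 1 of the 6 libraries left out and in the model of all 12 libraries. The gene models of Ezr and Sytl3, on opposite strands, share 4 exon bases.

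**Figure D2:**
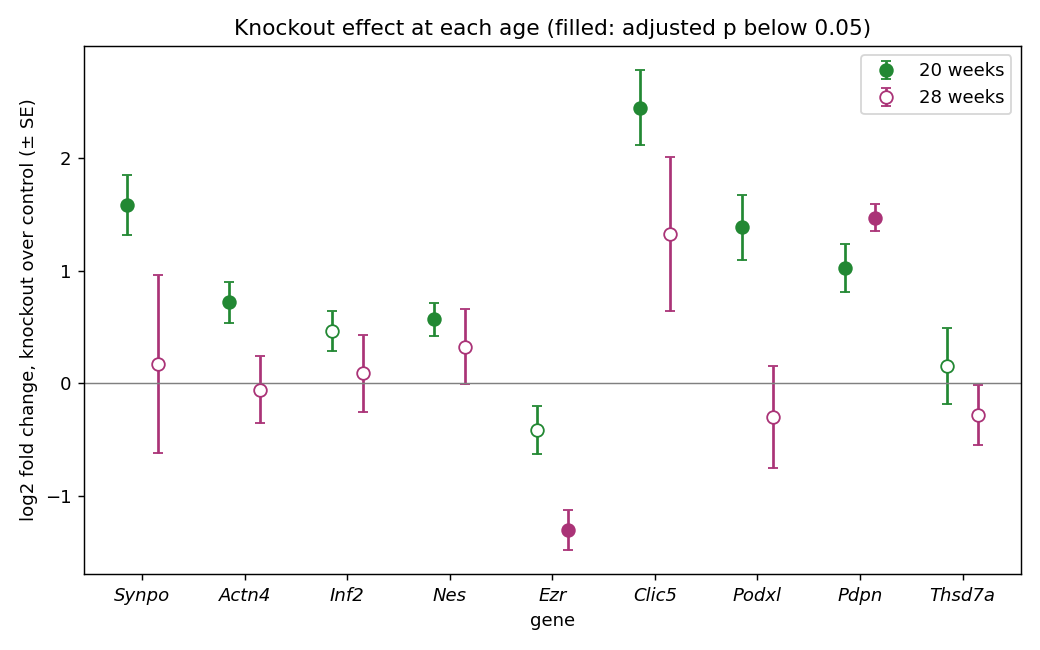
Log2 fold change of knockout against control for each of the 9 genes at 20 and at 28 weeks, with bars of 1 SE; filled points passed an adjusted p below 0.05 in edgeR. Clic5, Synpo, Podxl, Pdpn, Actn4 and Nes are filled at 20 weeks, and only Pdpn and Ezr are filled at 28 weeks.

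The groups of the other 7 genes overlapped at 28 weeks. Synpo was at 367, 99.2 and 99.7 CPM in controls and at 48.6, 322 and 265 CPM in knockouts. Control 1 was the highest and knockout 1 the lowest of all 6 libraries, and the log2 fold change was 0.17 ± 0.79 (adjusted p = 0.909). Podxl was at 582, 286 and 297 CPM in controls and at 149, 437 and 362 CPM in knockouts, with a log2 fold change of -0.30 ± 0.45 (adjusted p = 0.697). Its extremes were the same 2 libraries. Clic5 was at 193, 131 and 134 CPM in controls and at 95.8, 770 and 285 CPM in knockouts. Knockouts 2 and 3 were above all controls and knockout 1 below them, so the log2 fold change of 1.33 ± 0.68 did not pass (adjusted p = 0.226).

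Actn4, Inf2 and Nes had nearby group means at 28 weeks. Actn4 was at 1502, 839 and 856 CPM in controls and at 762, 1027 and 1291 CPM in knockouts (-0.05 ± 0.30 on the log2 scale, adjusted p = 0.925). Inf2 was at 130, 60.9 and 62.8 CPM in controls and at 71.9, 84.9 and 114 CPM in knockouts (0.09 ± 0.34, adjusted p = 0.886). Nes was at 809, 449.6 and 460.2 CPM in controls and at 466, 762 and 928 CPM in knockouts (0.33 ± 0.33, adjusted p = 0.546). In all of these, control 1 stood above the other controls and knockout 1 below the other knockouts. Thsd7a was at 20.1, 20.9 and 21.8 CPM in controls and at 10.6, 20.0 and 21.1 CPM in knockouts. Only knockout 1 was apart from the rest, and the difference was -0.28 ± 0.27 (adjusted p = 0.51).

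Control 1 and knockout 1 stood at the extremes of their groups for most of the set at 28 weeks. Control 1 was the highest control for 8 of the 9 genes, which held for 52.1% of all genes, and knockout 1 was the lowest knockout for 8 of the 9, which held for 38.8% of all genes. The exceptions were Thsd7a in control 1 and Ezr in knockout 1. Without knockout 1, Clic5 was called as well, at 1.77 on the log2 scale (adjusted p = 0.0333), and without knockout 2 it was at 0.33. The log2 fold change of Synpo was 1.09 without control 1 and 0.65 without knockout 1. That of Podxl was 0.11 without control 1 and 0.04 without knockout 1, and that of Actn4 0.27 and 0.12, so both turned sign.

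**Figure D3:**
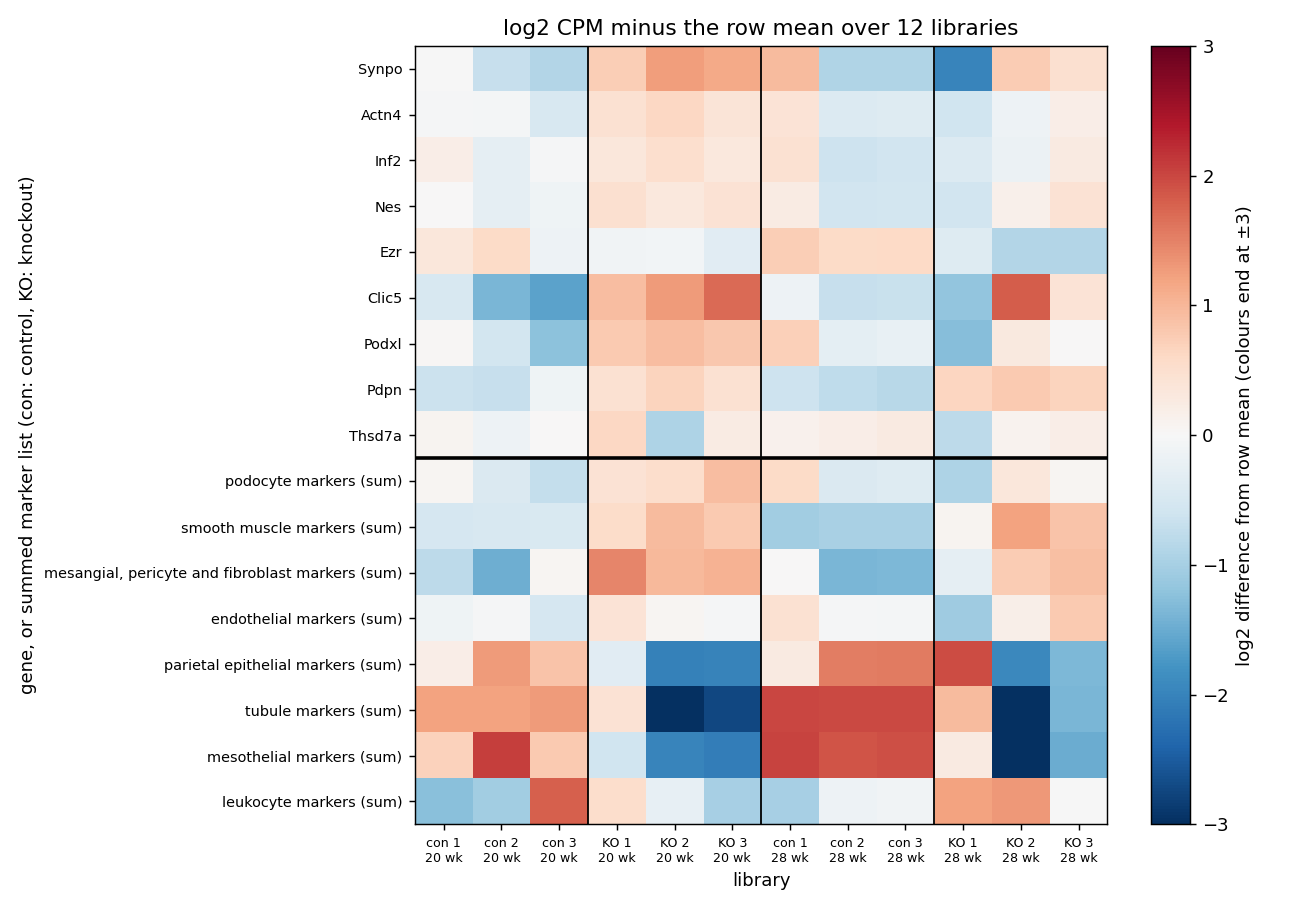
Log2 CPM of the 9 genes and of the summed marker lists in each of the 12 libraries, centred on the mean of each row; columns are libraries by age and genotype, and colour gives the deviation. At 28 weeks control 1 is high and knockout 1 is low for most of the 9 genes and for the podocyte sum. The parietal epithelial sum runs the other way.

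The summed markers set the same libraries apart, and their part in the spread was not tested. The 18 podocyte markers summed to 2851 CPM in control 1 against 1412 and 1464 CPM in controls 2 and 3, and to 1023 CPM in knockout 1 against 2468 and 2021 CPM in knockouts 2 and 3. At 28 weeks 2 of them fell and 16 did not pass, against 11.9% of all genes called lower and 9.33% higher. The log2 fold change was positive for 8 of the 18. Nphs1 fell by 2.46 on the log2 scale (adjusted p = 0.024) and Cdkn1c fell by 1.78 (adjusted p = 0.0108). The 8 parietal markers, of which 2 fell, summed to 2894, 6857 and 6981 CPM in controls and to 9561, 640.2 and 946 CPM in knockouts. Knockout 1 thus had the lowest podocyte sum and the highest parietal sum of the 12 libraries. Its parietal sum was mostly Krt8, at 5545 CPM, and Cd24a, at 2851 CPM. The other parietal markers, Krt18, Krt7, Scin, Cldn1, Pax8 and Pax2, were each lower in knockout 1 than in every control of this age.

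The remaining markers were counted in the same way at 28 weeks, when 9.33% of all genes rose and 11.9% fell. Of 7 smooth muscle markers 5 rose, with sums of 3173 to 3308 CPM in controls and 7052 to 15465 CPM in knockouts. Of 11 tested mesangial, pericyte and fibroblast markers 2 rose and 1 fell, with sums over 12 genes of 570.2 to 1517 CPM and 1265 to 2827 CPM. Of 10 tubule markers 2 fell, with sums of 1832 to 1886 CPM and 32.0 to 927 CPM, and of 3 tested mesothelial markers 2 fell, with sums over 5 genes of 537 to 594 CPM and 12.8 to 180 CPM. Of 10 endothelial markers 1 fell, with sums of 122 to 176 CPM and 61.9 to 223 CPM. Of 8 tested leukocyte markers 2 rose, with sums over 10 genes of 25.3 to 46.0 CPM and 49.7 to 124 CPM. Lrrn4 again had no reads in any knockout, and was at only 0.0251 to 0.0488 CPM in controls. Umod and Slc12a3 had none in knockout 3. In knockout 1 they were at 1.29 and 4.23 CPM, against 0.0512 to 1.28 CPM and 0.896 to 2.02 CPM in controls.

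Whether the knockout effect differed between the ages was tested in the model of all 12 libraries. None of the 9 genes passed, and none of 15662 genes passed in edgeR, where 1428 (9.12%) had an unadjusted p below 0.05, Podxl and Ezr among them. DESeq2 called 27 genes and none of the 9. The largest differences of the set were in Podxl, at -1.66 ± 0.59 on the log2 scale (unadjusted p = 0.0171, adjusted p = 0.538), Synpo, at -1.38 ± 0.91 (adjusted p = 0.617), and Clic5, at -1.10 ± 0.82 (adjusted p = 0.651). Ezr differed by -0.87 ± 0.28 (unadjusted p = 0.00958, adjusted p = 0.538), being further below the controls at the later age. Pdpn differed by 0.45 ± 0.22 (adjusted p = 0.567). Age coincides with the deposited table, so age and table cannot be told apart in these contrasts.

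Within genotypes no gene of the set passed between the ages either, and edgeR called no gene at all in either contrast. In controls 466 genes (2.98%) had an unadjusted p below 0.05, with 0 of the 9 among them, and DESeq2 called 1 gene. In knockouts 1759 genes (11.2%) did, with 3 of the 9 among them, and DESeq2 called 40. In knockouts, from 20 to 28 weeks, Podxl differed by -1.02 (unadjusted p = 0.0335), Actn4 by -0.65 (unadjusted p = 0.0270) and Ezr by -0.53 (unadjusted p = 0.0212), each with an adjusted p of 0.429. In controls the same genes differed by 0.64, 0.11 and 0.34, each with an adjusted p of 1.00.

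Other proteins of the foot process cytoskeleton were read from a list of 35 genes. At 20 weeks 6 of 35 tested genes rose and 29 did not pass, with a median log2 fold change of 0.48, against 4.79% higher and a median of 0.01 over all genes. The genes that rose were Synpo2, a paralogue of synaptopodin found in muscle, Vim, an intermediate filament gene, Arhgap24, which restrains Rac, Vcl, for vinculin of focal adhesions, Kank1, a cortical adaptor, and Palld, an actin scaffold. Vim was at 1825, 1297 and 1808 CPM in controls and at 3978, 4091 and 3357 CPM in knockouts, and rose by 1.21 on the log2 scale (adjusted p = 0.00893). Vcl was at 448, 405 and 467 CPM in controls and at 869, 747 and 775 CPM in knockouts, and rose by 0.86 (adjusted p = 0.013). Synpo2 was far lower in level, at 1.01 to 1.37 CPM in controls and 8.43 to 9.67 CPM in knockouts, with a log2 fold change of 2.93 (adjusted p = 0.00259). Arhgap24, Kank1 and Palld rose by 1.36, 1.39 and 0.77.

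At 28 weeks 3 of 34 tested cytoskeletal genes rose and 2 fell, with a median of 0.00. Over all genes 9.33% rose and 11.9% fell, 21.2% in all, with a median of 0.07. Whether this list differed from all genes was not tested. Synpo2 rose by 3.79 (adjusted p = 0.0237), although knockout 1, at 1.88 CPM, lay far below knockouts 2 and 3, at 18.6 and 18.2 CPM. Des, for desmin, and Cotl1, for an actin-binding protein of the coactosin family, rose by 0.91 and 0.50. Diaph1, for a formin that elongates actin filaments, fell by 0.87 (adjusted p = 0.00674), from 115 to 136 CPM in controls to 60.5 to 71.5 CPM in knockouts. Cd2ap, for an adaptor between the slit diaphragm and actin, fell by 1.38 (adjusted p = 0.0368), from 472 to 554 CPM in controls to 100.1 to 277 CPM in knockouts. The 5 calls became 1 without any 1 of the controls, 2 without knockout 2 and 2 without knockout 3. Over all genes the 3183 calls became 1973, 1288 and 1266 without controls 1, 2 and 3. They became 2057 without knockout 2 and 2851 without knockout 3. At 20 weeks the 6 calls became 3 without control 2, where the 1473 calls over all genes became 602.

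**Figure D4:**
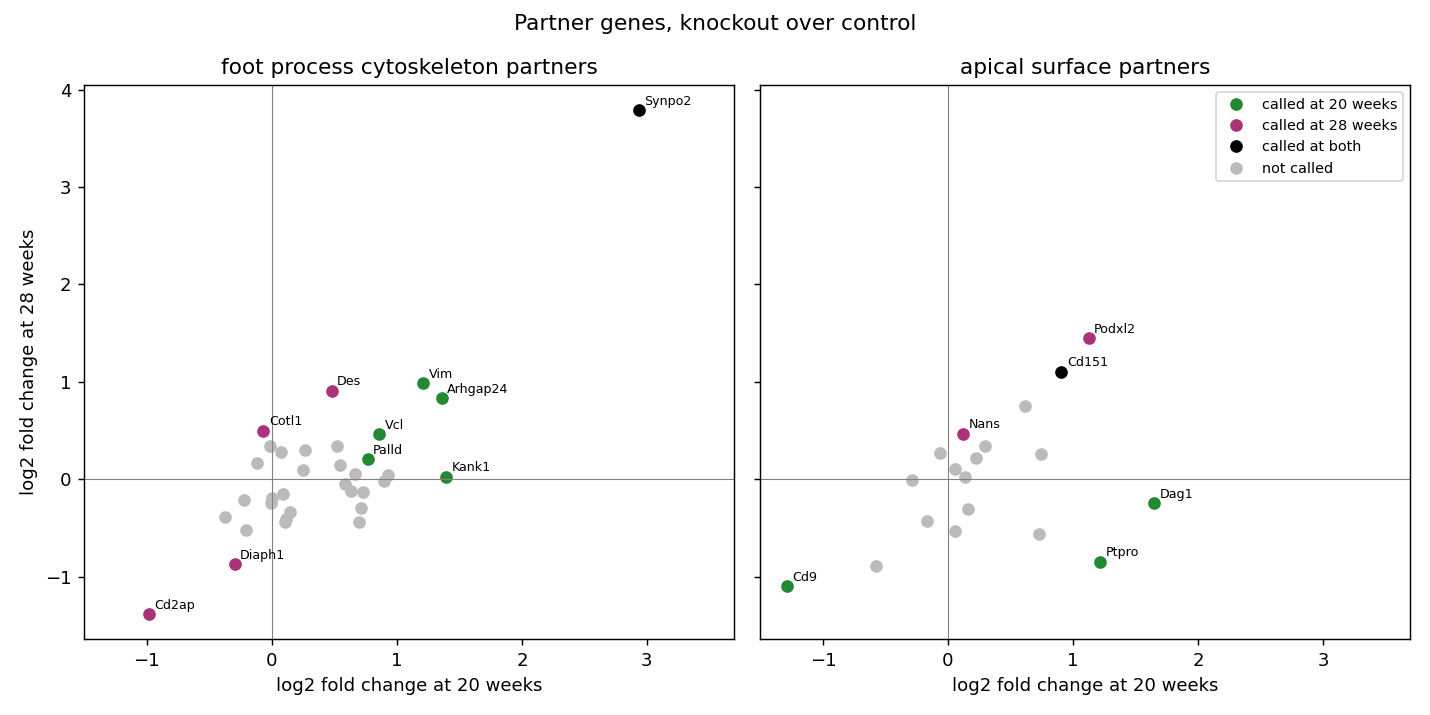
Log2 fold change of knockout against control at 20 weeks (horizontal axis) and 28 weeks (vertical axis) for partner genes of the foot process cytoskeleton (left) and of the apical surface (right) tested at both ages; points are genes, coloured by the ages at which they were called. Synpo2, at 2.93 and 3.79, and Cd151, at 0.91 and 1.10, were called at both ages.

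A list of 21 genes, here named apical partners, was read next, of which 19 were tested at 20 weeks and 20 at 28 weeks. The name is only a label, since the list also holds integrin and matrix partners such as Cd151 and Dag1 and sialic acid enzymes such as Nans. At 20 weeks 3 rose and 1 fell, with a median of 0.16, against 9.92% of all genes called and a median of 0.01. Dag1, for dystroglycan, was at 480, 258 and 246 CPM in controls and at 955, 1161 and 966 CPM in knockouts, and rose by 1.65 (adjusted p = 0.0112). Cd151, a tetraspanin that binds laminin-binding integrins, rose by 0.91 (adjusted p = 0.022), and Ptpro, a receptor phosphatase of the podocyte apical membrane, rose by 1.22 (adjusted p = 0.0285). Cd9, another tetraspanin, fell by 1.29 (adjusted p = 0.0123). The 4 calls became 1 without control 2, knockout 2 or knockout 3, and 2 without control 1 or control 3. Over all genes the 1473 calls became 602, 663, 553, 517 and 1061 in the same order.

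At 28 weeks 3 of the apical partners rose and 17 did not pass, with a median of 0.01. Over all genes at this age 9.33% rose and 11.9% fell, 21.2% in all, with a median of 0.07. Whether the list differed from all genes was not tested. Cd151 was at 409, 426 and 409 CPM in controls and at 962, 920 and 790.2 CPM in knockouts. These groups were well apart, with a log2 fold change of 1.10 (adjusted p = 0.00438). Nans, for a sialic acid synthase, rose by 0.47 and Podxl2, for the podocalyxin relative endoglycan, by 1.45. The 3 calls became 1 without any 1 of the controls and 6 without knockout 1. Over all genes the 3183 calls became 1973, 1288 and 1266 without controls 1, 2 and 3, and 3374 without knockout 1.

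Beside Synpo2 and Podxl2, 5 further relatives and 2 adaptors of the set were read whatever their p, and these did not pass at either age. Actn1, the paralogue of Actn4, had log2 fold changes of 0.58 at 20 weeks and -0.05 at 28 weeks (adjusted p = 0.152 and 0.944). Clic4 was at 0.30 and 0.34 (adjusted p = 0.246 and 0.229) and Clic1 at -0.06 and 0.27 (adjusted p = 0.868 and 0.423), against 2.45 and 1.33 for Clic5. The other members of the ezrin family, Rdx for radixin and Msn for moesin, were at 0.16 and 0.23 at 20 weeks and at -0.30 and 0.22 at 28 weeks, where Ezr was at -1.30. Their adjusted p at 28 weeks was 0.088 for Rdx and 0.634 for Msn. The podocalyxin adaptors Nherf1 and Nherf2 were at -0.16 and 0.75 at 20 weeks (adjusted p = 0.607 and 0.0853) and at -0.42 and 0.26 at 28 weeks (adjusted p = 0.154 and 0.724). The differences between relatives were not tested.

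Each gene's profile over the 12 libraries was compared with that of 10542 genes by the root mean square (RMS) difference. The log2 CPM values were centred on their own means and not scaled. The difference thus reflects the width of a profile as well as its shape. Within the set the closest pairs were Inf2 with Nes (0.161), Actn4 with Inf2 (0.192) and Actn4 with Nes (0.206). Inf2, Nes and Actn4 also had the narrowest profiles of the set, with an RMS about their own means of 0.384, 0.391 and 0.396. Synpo was closest to Podxl (0.426). Ezr had the most distant nearest neighbour in the set, Thsd7a at 0.653, which is more than the 0.542 RMS of its own profile about its mean.

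Outside the set, the nearest profile to Actn4 was that of Ift172, at 0.0342 against an RMS of 0.396 for Actn4 itself, followed by Slc44a2 at 0.0789. Synpo was nearest to Foxd2 (0.154) and Kank1 (0.208), and Podxl to Fry (0.193) and Pard3b (0.243). Pdpn was nearest to Foxs1 (0.123) and Stom (0.123), and Ezr to Pigo (0.142) and Bicdl1 (0.150). Clic5 had the most distant neighbours, Agtr1a at 0.355 and Lpl at 0.385, beside the widest profile of the set at 1.15. Nes was nearest to Lclat1 (0.0677) and Slc8b1 (0.0941), Inf2 to Prrc1 (0.0944) and Acsf2 (0.0945), and Thsd7a to Bltp1 (0.116) and Ubr1 (0.138). All profiles share the same libraries, and the likeness is a description only.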

How the data were processed

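Per the labels' protocols, RNA came from a Qiagen RNeasy kit and libraries from a SMARTER mRNA kit. The authors deposited raw read counts per gene symbol and FPKM values for each age. The length implied by each FPKM was constant over libraries to 1e-06 in relative terms. The build was GRCm38 (mm10), per the submitters' processing notes. For the aligner, counter, strand setting and annotation: not given in the sources used here.

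Each age was fitted alone in edgeR 4.0.16 (R 4.3.3) with TMM scaling, filterByExpr and quasi-likelihood F tests, with no block. Calls needed an adjusted p (Benjamini-Hochberg, all tested genes) below 0.05. This test gave the adjusted p-values in the text except where DESeq2 or limma is named. SE is the absolute log2 fold change over the root of F, and CPM uses TMM-scaled totals. Contrasts between ages came from 1 edgeR model of the 12 libraries. DESeq2 1.42.0, limma 3.58.1 on log2(FPKM + 0.1) and log2(FPKM + 1), other scalings and filters, and left-out libraries were alternatives. At this depth 0 counts allow 0.0769 to 0.0955 CPM, taking 3 counts as the limit, for counting error only.

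On simulated counts the 20-week step (14602 genes) recovered 22.8% of 92 genes changed by 1 on the log2 scale and 74.5% of 102 changed by 2. The 28-week step (14722 genes) recovered 8.60% of 93 and 73.1% of 104, and the contrast between ages (15392 genes) 56.3% of 197 changed by 2. False calls were 7, 6 and 3. Far fewer genes were changed than were called in the data at either age, so recovery in the data may differ.

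The 9 genes, the partner lists and the marker lists were chosen with earlier results of these data known. Named were the 9 genes and Nsd2, up to 5 called partners per list, age and direction by smallest p, the paralogues and adaptors whatever their p, and the 2 nearest profiles of each gene among genes of at least 5 CPM. Marker genes named with values were chosen after those values were seen. Promoter windows came from a RefSeq table.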

Additional observations from a re-analysis of the deposited data

Results flagged for a closer look

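Ptpro, a receptor phosphatase of the podocyte apical membrane, was picked out by its values at the 2 ages, which lay on opposite sides of the controls. At 20 weeks it was at 34.2, 20.5 and 17.5 CPM in controls and at 64.8, 53.1 and 50.2 CPM in knockouts, where it rose by 1.22 (adjusted p = 0.0285). In the model of all 12 libraries that difference did not pass (adjusted p = 0.0657). At 28 weeks it was at 60.1, 53.7 and 56.9 CPM in controls and at 18.8, 53.3 and 22.9 CPM in knockouts, a difference of -0.85 (adjusted p = 0.179). Every knockout was above the controls at the first age and below them at the second, although knockout 2 at 28 weeks was within 1 CPM of the lowest control. The difference between the ages was -2.05 ± 0.52 on the log2 scale (unadjusted p = 0.00237) and did not pass after adjustment over all genes in edgeR (adjusted p = 0.538).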

How the results depend on the processing

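For the 9 genes under settings other than left-out libraries, 306 values kept their direction and side of the threshold, 13 lost a call and 5 turned sign. The sign changes were Thsd7a at 20 weeks (-0.047 and -0.0042 in limma with pseudocounts of 0.1 and 1), Synpo at 28 weeks (-0.014 in limma with 0.1, and -0.14 with control libraries 2 and 3 summed) and Inf2 at 28 weeks (-0.095 with them summed). None of these was a call. The 6 calls at 20 weeks were 2 in the model of 12 libraries and 1 to 4 with a library left out, and the 2 calls at 28 weeks were 2 to 3. The causes were not tested.

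Cytoskeletal partner calls were 10 in DESeq2 at 20 weeks, and at 28 weeks 9 in DESeq2 and 1 with the controls summed. Apical partner calls at 28 weeks were 5 in DESeq2 and 1 with the controls summed. With a library left out, cytoskeletal calls were 3 to 6 at 20 weeks and 1 to 6 at 28 weeks, and apical calls 1 to 5 and 1 to 6. Over all genes, the 1473 calls at 20 weeks were 2431 in DESeq2 and 517 to 2023 with a library left out. The 3183 calls at 28 weeks were 1299 with the controls summed and 1266 to 3374 with a library left out.

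Replicate numbers did not pair the libraries. Correlations of same-numbered deviations were -0.0959, 0.399 and -0.132 at 20 weeks and -0.619, -0.165 and -0.551 at 28 weeks. With the replicate number as a block, 5 of the 9 genes were called at 20 weeks (Nes was lost, adjusted p = 0.0644) and 2 at 28 weeks. The block left 0 cytoskeletal and 0 apical partner calls at 28 weeks, and 332 calls over all genes.

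With 1 library left out, these differences of the knockout from the control turned sign at 28 weeks: Synpo from -0.23 to 1.09, Actn4 from -0.29 to 0.27, Inf2 from -0.15 to 0.54 and Podxl from -0.59 to 0.11. Thsd7a ran from -0.16 to 0.48 at 20 weeks. Between the ages, controls ran from -0.43 to 0.78 for Synpo, -0.21 to 0.25 for Actn4, -0.55 to 0.070 for Inf2 and -0.43 to 0.036 for Nes, and knockouts from -0.56 to 0.12 for Thsd7a. The change of the knockout effect ran from -0.57 to 0.074 for Inf2 and -0.47 to 0.083 for Nes. No value that turned sign was a call.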
